A study of Mus musculus with 5 samples.

Results

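The Ikaros and Runx transcription factors were followed through 8 genes, which are Ikzf1, Ikzf2, Ikzf3 and Ikzf5 of the Ikaros family, Runx1, Runx2 and Runx3 of the Runx family, and Cbfb, which encodes the partner subunit of the Runx proteins. They were chosen by symbol, and all 8 were found among the 55450 genes of the deposited lists. The data are single-cell RNA counts from droplet libraries (10x Genomics 3′ chemistry) of progenitors sorted from the bone marrow of wild-type Balb/C mice aged 8 to 12 weeks, with no treatment. The 3 GMP (granulocyte-monocyte progenitor) libraries hold cells without lineage markers and Sca-1 that carry c-Kit, CD34 and high CD16/32, after magnetic enrichment for c-Kit as in all groups. The gate of the single CMP (common myeloid progenitor) library differed by low CD16/32. The single LMPP (lymphoid-primed multipotent progenitor) library holds lineage-negative, c-Kit-positive cells that also carry Sca-1, CD34 and Flt3. The GMP libraries are numbered replicates, and how many animals each library pooled is not given in the sources used here. The p-values rest on the spread between these libraries, which may be technical, and on spread shared over all genes tested. CMP and LMPP each rest on 1 library and are assumed to vary as the GMP libraries do.

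Ikaros proteins are zinc-finger factors that bind DNA as dimers and bring the NuRD chromatin remodelling complex to their targets. Ikzf1 encodes Ikaros itself, which is needed to form lymphoid cells and primes lymphoid genes in multipotent progenitors, and Ikzf2 encodes Helios, known from stem cells and T cells. Ikzf3 encodes Aiolos, which acts in maturing B cells, and Ikzf5 encodes Pegasus, a more distant relative. Runx proteins bind DNA through the Runt domain, and CBFβ, the product of Cbfb, strengthens that binding without touching DNA. Runx1 is required for blood stem cells to form and for platelet and lymphoid development, Runx2 is the main factor of bone formation, and Runx3 acts in cytotoxic T cells. Beside these genes stand 4 marker genes of separate fates. Dntt encodes terminal transferase of lymphoid progenitors, Prg2 the major basic protein of eosinophils, Gzmb the protease granzyme B, made by cytotoxic lymphocytes and also by mast cells and basophils, and Elane neutrophil elastase.

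Promoter windows of the Runx genes and of Gzmb are shown because the counts of Runx1 and Runx3 differed beside Gzmb, and because these windows held the Runx motif. They reach from 250 bases before to 50 bases after an annotated start (RefSeq, GRCm38.p6), and are the first window of each Runx gene and the window of Gzmb. Capitals mark the Runx motif TGTGGT or TGCGGT, read on either strand (ACCACA is TGTGGT on the other strand), and the Ikaros core TGGGAA.
Runx1, chr16:92826025-92826324, minus strand: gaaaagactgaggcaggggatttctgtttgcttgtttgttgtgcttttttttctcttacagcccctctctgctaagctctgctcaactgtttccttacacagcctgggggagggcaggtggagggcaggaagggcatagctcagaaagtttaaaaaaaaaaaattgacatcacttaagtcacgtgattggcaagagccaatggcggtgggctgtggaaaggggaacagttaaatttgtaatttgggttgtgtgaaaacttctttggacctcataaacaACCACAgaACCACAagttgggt
Runx2, chr17:44814578-44814877, minus strand: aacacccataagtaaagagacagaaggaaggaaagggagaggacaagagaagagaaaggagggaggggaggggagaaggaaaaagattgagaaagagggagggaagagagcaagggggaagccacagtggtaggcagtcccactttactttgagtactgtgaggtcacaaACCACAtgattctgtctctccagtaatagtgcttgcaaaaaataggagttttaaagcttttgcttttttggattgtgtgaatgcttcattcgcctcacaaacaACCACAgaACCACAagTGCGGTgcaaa
Runx3, chr4:135120395-135120694, plus strand: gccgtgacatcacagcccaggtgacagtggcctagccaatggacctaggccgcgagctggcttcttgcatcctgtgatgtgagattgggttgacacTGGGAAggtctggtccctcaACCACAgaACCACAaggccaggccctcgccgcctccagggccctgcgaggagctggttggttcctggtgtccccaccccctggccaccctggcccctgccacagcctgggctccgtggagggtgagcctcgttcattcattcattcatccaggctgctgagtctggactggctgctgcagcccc
Gzmb, chr14:56262285-56262584, minus strand: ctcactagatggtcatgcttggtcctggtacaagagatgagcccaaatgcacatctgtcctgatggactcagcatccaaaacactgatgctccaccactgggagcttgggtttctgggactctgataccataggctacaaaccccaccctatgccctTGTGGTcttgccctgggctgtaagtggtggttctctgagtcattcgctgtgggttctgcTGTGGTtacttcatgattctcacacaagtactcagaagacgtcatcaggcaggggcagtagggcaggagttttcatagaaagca
Runx1 held 2 matches to TGTGGT, Runx2 held 3 with 1 further TGCGGT, and Runx3 held 2 with 1 TGGGAA. In all 3 of these windows 2 of the matches lie 2 bases apart, within a stretch of 18 bases that is the same in each: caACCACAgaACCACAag. That stretch begins 27 bases after the annotated start in Runx1, 22 bases after it in Runx2 and 136 bases before it in Runx3. The stretch was picked as the longest run shared by the first windows of Runx1, Runx2 and Runx3, so these hold it by definition. Of 32817 windows of this length it was found in 4, or 0.0122%, and 3 of these are the windows it was taken from. A run picked in this way gives no independent measure of how particular it is to them. The Gzmb window held 2 TGTGGT matches, beginning 93 and 34 bases before the start. For comparison, 16.8% of all windows held TGTGGT, 1.81% held it more than once, 6.45% held TGCGGT and 25.6% held TGGGAA. None of these letters was found in the windows of Ikzf1, Ikzf5, Cbfb, Dntt and Elane, or in the second windows of Runx1 and Runx3. Windows were found for 9 of the 12 genes (the 8 members and the 4 markers), and a match is a run of letters, not a measured binding site. Because the libraries read the 3′ ends of transcripts, they do not tell which start site was used.

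In the annotation of the files (GENCODE M21, GRCm38), Ikzf1 lies at chr11:11685003-11772926 on the plus strand and Ikzf2 at chr1:69531214-69687245 on the minus strand. Runx1 spans chr16:92601466-92826149 on the minus strand, Runx2 spans chr17:44495987-44814797 on the minus strand and Runx3 spans chr4:135120652-135177990 on the plus strand. Cbfb lies at chr8:105170674-105217989 on the plus strand. Genes on the opposite strand overlap several of them, among these Runx2os1, Runx2os2, Runx2os3 and Supt3 in Runx2 and Pstk in Ikzf5, and how the counting treated strand is not given in the sources used here.

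After low-quality barcodes and doublet calls were removed, 8429, 9016 and 7334 cells remained in GMP replicates 1, 2 and 3, 6880 in CMP and 7511 in LMPP, with median depths between 9233 and 15082 UMIs (unique molecules) per cell. Any 2 libraries shared between 12 and 28 barcodes. Levels are given as CPM, the UMIs of a gene per 1000000 UMIs of its library, and shares of cells with a UMI were taken after each cell was thinned to 2000 UMIs. Fold changes come from summed UMIs with TMM factors, which hold most genes level. Scaling by total UMIs instead moves the median of all genes to -0.33 for GMP against CMP and to -0.70 for GMP against LMPP on the log2 scale, from -0.04 and -0.09, so members near no change can change direction with the scaling.

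Of the Ikaros family, Ikzf1 and Ikzf2 were lower in GMP than in both other populations, Ikzf5 was close to level and Ikzf3 was almost absent. Ikzf1 stood at 39.8, 42.4 and 47.1 CPM in GMP replicates 1, 2 and 3, at 89.0 CPM in CMP and at 113 CPM in LMPP. All 3 GMP libraries lay below the other 2. The log2 fold change was -0.74 ± 0.12 (SE) against CMP (edgeR, adjusted p = 0.00378) and -0.78 ± 0.12 against LMPP (adjusted p = 0.00149). In a summed library, fewer cells with the transcript and less of it per cell cannot be told apart. The share of thinned cells with an Ikzf1 UMI was 8.54, 8.85 and 8.81% in GMP, 16.7% in CMP and 19.1% in LMPP, and without thinning it was 34.2, 40.6 and 49.1% in GMP, 54.0% in CMP and 59.6% in LMPP.

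Ikzf2 stood at 18.5, 28.6 and 23.1 CPM in the GMP libraries, 55.2 CPM in CMP and 95.1 CPM in LMPP. The order of the populations was the same as for Ikzf1, with no overlap. The log2 fold change was -0.93 ± 0.20 against CMP (adjusted p = 0.0102) and -1.41 ± 0.19 against LMPP (adjusted p = 0.000758). An Ikzf2 UMI was found in 4.24, 6.996 and 5.55% of thinned GMP cells, 10.4% of CMP cells and 17.7% of LMPP cells, and unthinned in 15.1, 23.8 and 21.9%, 38.8% and 55.2%.

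Ikzf5 stood at 14.3, 17.9 and 16.999 CPM in GMP, 17.9 CPM in CMP and 18.9 CPM in LMPP, and its GMP values reached the CMP value. It did not pass the test against CMP (log2 0.18 ± 0.15, adjusted p = 0.414) or against LMPP (0.41 ± 0.16, adjusted p = 0.0552; without GMP replicate 1 it passed, at 0.47), and scaled by total UMIs both values were below 0 (-0.12 and -0.21). Ikzf3 had 5, 3 and 6 UMIs in the GMP libraries, 4 in CMP and 4 in LMPP, and these low counts kept it out of every test. An Ikzf3 UMI was found in 0, 0 and 0.0138% of thinned GMP cells, 0.0146% of CMP cells and 0.0134% of LMPP cells (unthinned 0.0593, 0.0333 and 0.0818%, 0.0436% and 0.0266%). For the counts of 0 the exact 95% upper limits are 0.0452% and 0.0414% of thinned cells with a UMI, which limits detection at this depth and not the cells that hold the transcript.

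Among the Runx genes, Runx2 was lower in GMP than in both other populations, Runx3 was lower than in CMP, and Runx1 did not pass either test. Runx2 stood at 15.4, 18.6 and 20.8 CPM in GMP, at 48.1 CPM in CMP and at 106 CPM in LMPP. The log2 fold change was -1.09 ± 0.15 against CMP (adjusted p = 0.00167) and -1.92 ± 0.15 against LMPP (adjusted p = 6.42e-05), which was the largest change of any member tested between populations. Its UMIs were found in 3.15, 3.78 and 4.23% of thinned GMP cells, 9.90% of CMP cells and 19.8% of LMPP cells (unthinned 15.4, 20.6 and 25.8%, 36.7% and 59.4%).

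Runx3 had its highest level in CMP. It stood at 61.3, 65.0 and 65.0 CPM in GMP, 147.7 CPM in CMP and 102 CPM in LMPP, and a Runx3 UMI was found in 11.8, 12.2 and 12.8% of thinned GMP cells, 25.8% of CMP cells and 17.9% of LMPP cells (unthinned 45.5, 53.0 and 59.4%, 72.0% and 57.6%). Against CMP it fell by 0.91 ± 0.11 on the log2 scale (adjusted p = 0.000993). Against LMPP the log2 fold change was -0.05 ± 0.12 with TMM factors (adjusted p = 0.713), but -0.67 with total UMI scaling (adjusted p = 0.00179), so this comparison turns on the scaling.

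Runx1 stood at 52.1, 64.5 and 69.2 CPM in GMP, 90.6 CPM in CMP and 77.4 CPM in LMPP, below both in every GMP library. Its log2 fold change was -0.25 ± 0.15 against CMP (adjusted p = 0.256) and 0.29 ± 0.16 against LMPP (adjusted p = 0.144), and without GMP replicate 1 the value against LMPP passed, at 0.37. Scaled by total UMIs the values were -0.55 (adjusted p = 0.0364) and -0.32 (adjusted p = 0.133). Cbfb stood at 17.5, 23.3 and 28.5 CPM in GMP, 28.9 CPM in CMP and 39.0 CPM in LMPP, in which the highest GMP library nearly reached CMP. It passed neither test (log2 -0.02 ± 0.22, adjusted p = 0.945, and -0.14 ± 0.22, adjusted p = 0.592). The spread of Cbfb between GMP libraries was wide, 23.1 ± 5.51 CPM (SD, n = 3).

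**Figure D1:**
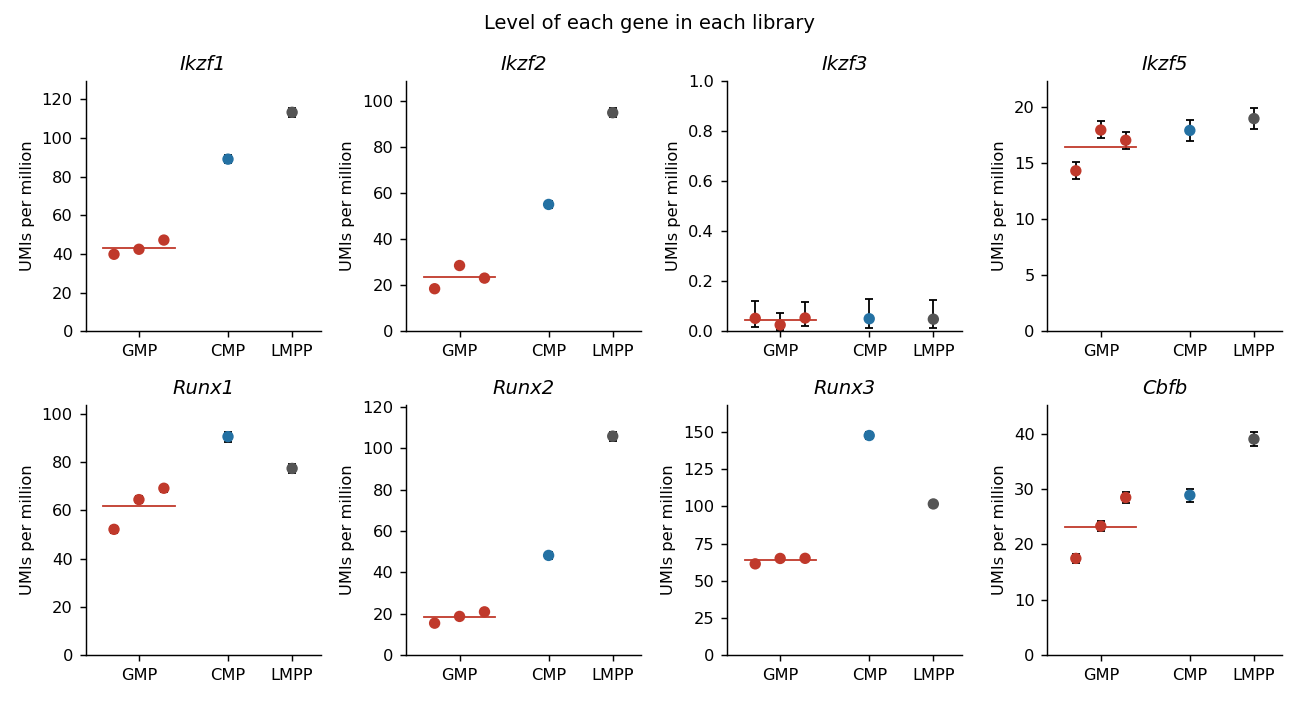
Level of the 8 genes in CPM (vertical axis, from 0) in each library, with GMP replicates in red and their mean as a line, CMP in blue and LMPP in grey; error bars are exact 95% Poisson intervals of the counts. For Ikzf1, Ikzf2 and Runx2 the order runs GMP, CMP, LMPP upward, whereas Runx3 peaks in CMP at 147.7 CPM and Ikzf3 stays near 0.

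Counted over the family, 4 of the 7 members tested fell in GMP against CMP and 0 rose, where 32.3% of the 19717 genes tested passed, 13.4% higher and 18.9% lower. Against LMPP 3 of 7 fell and 0 rose, where 57.1% of genes passed, 31.4% lower and 25.7% higher. Without GMP replicate 1, and also with total UMI scaling, 5 of 7 passed against LMPP. The members' median log2 fold change was -0.74 against CMP and -0.14 against LMPP, beside -0.04 and -0.09 over all genes tested. The comparisons share the GMP libraries.

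CMP and LMPP, with 1 library each, were set side by side without a test. By total UMIs, Runx3 was 1.45-fold (95% counting interval 1.41 to 1.49) and Runx1 1.17-fold (1.13 to 1.21) the LMPP level in CMP, whereas Runx2 was 0.455-fold (0.438 to 0.472) and Ikzf2 0.580-fold (0.559 to 0.602). Ikzf1 was 0.786-fold and Cbfb 0.740-fold. With TMM factors every ratio was higher, at 1.81 for Runx3, 1.46 for Runx1, 0.565 for Runx2, 0.721 for Ikzf2, 0.977 for Ikzf1 and 0.920 for Cbfb, and Ikzf5 changed side, from 0.944 to 1.17. The make-up of the Runx counts differed accordingly, and such shares do not depend on library scaling. Runx2 took 11.9, 12.6 and 13.4% of Runx UMIs in the GMP libraries, 16.8% in CMP and 37.1% in LMPP. Runx3 took 47.6, 43.9 and 41.9% in GMP, 51.6% in CMP and 35.7% in LMPP, and Runx1 40.5, 43.6 and 44.6% in GMP, 31.6% in CMP and 27.2% in LMPP. Ikzf2 took 25.5, 32.2 and 26.5% of the Ikaros family UMIs in GMP, 34.0% in CMP and 41.8% in LMPP.

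For the 6 members of at least 20 CPM on average, the genes with the most similar profile over the 5 libraries were found among 5059 genes by the root mean square difference of centred log2 CPM. Closest to Ikzf1 were Hhex (0.04), a homeobox factor of blood and liver, the cytokine receptor chain Il10rb (0.04) and Arhgap30 (0.05). Closest to Ikzf2 were Elk4 (0.12), the E protein gene Tcf4 (0.13) and the stem cell adaptor gene Lmo2 (0.13), all at larger distances than those of the other members. Runx1 had Yrdc (0.05), Ube2d2a (0.06) and Pfn1 (0.06), and Runx2 had Zfp36 (0.05), which encodes an RNA-decay factor, Khdc4 (0.08) and Lztfl1 (0.09). Runx3 had the kinase gene Csk (0.07), the signal transducer gene Stat5a (0.09) and the cytokine receptor gene Il17ra (0.09), and Cbfb had Med1 (0.04), Pex13 (0.07) and Arid1a (0.07).

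Single cells were then split by the marker genes. A cell was taken as positive at 3 or more UMIs of the marker after thinning and set against cells with 0, and cells with 1 or 2 were left out. In GMP this gave 74, 96 and 67 Prg2-positive cells against 7537, 8209 and 6751, and 77, 132 and 117 Gzmb-positive cells against 7957, 8638 and 7037, in replicates 1, 2 and 3. No cell of any library was positive for both. Only 18, 18 and 4 thinned GMP cells had 0 Elane UMIs, so the upper tertile by Elane (medians of 42, 35 and 36 UMIs) was set against the lower tertile (medians of 7, 6 and 9). Dntt reached 3 UMIs in 0, 0 and 1 GMP cells, which allows no comparison in GMP. UMIs of each side were summed per library and tested with library as a block. An exact sign-flip test of detection over the 3 libraries gave p = 0.25 for Ikzf2 beside Gzmb, the smallest value it can give. The smaller edgeR p-values below also draw on spread shared over all genes tested, and not on 3 libraries alone.

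Gzmb-positive GMP cells had more Ikzf2, Ikzf1, Runx1 and Runx3 RNA than GMP cells without Gzmb. Ikzf2 stood at 174, 322 and 332 CPM in Gzmb-positive cells of replicates 1, 2 and 3, against 16.7, 26.1 and 20.7 CPM in Gzmb-zero cells, a log2 fold change of 3.23 ± 0.11 (adjusted p = 9.58e-180). An Ikzf2 UMI was found in 23.4, 47.0 and 48.7% of thinned positive cells against 3.81, 6.15 and 4.55% (unthinned 49.4, 67.4 and 74.4% against 14.4, 22.7 and 20.7%). Every library showed the difference, and replicate 1 had the lowest share of positive cells with Ikzf2. Ikzf1 stood at 168, 244 and 254 CPM in Gzmb-positive cells against 38.3, 40.9 and 45.7 CPM (log2 1.94 ± 0.11, adjusted p = 7.27e-66).

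Runx1 stood at 219, 248 and 325 CPM in Gzmb-positive cells, against 50.2, 63.0 and 67.2 CPM in Gzmb-zero cells (log2 1.64 ± 0.11, adjusted p = 6.27e-53), above the levels of the CMP and LMPP libraries as wholes. A Runx1 UMI was found in 35.1, 43.9 and 44.4% of thinned positive cells against 9.93, 12.7 and 12.6% (unthinned 54.5, 68.9 and 70.9% against 40.1, 52.3 and 59.1%). Runx3 stood at 165, 127 and 159 CPM in Gzmb-positive cells against 60.3, 64.1 and 64.4 CPM (log2 0.74 ± 0.12, adjusted p = 6.07e-09). The groups did not overlap for any of these 4 genes, and how many other genes did not overlap was not counted. Cbfb stood at 29.97, 36.6 and 68.8 CPM against 17.3, 23.0 and 28.2 CPM and passed narrowly (log2 0.51 ± 0.19, adjusted p = 0.0218), a call that rests on replicate 3, without which the log2 value was 0.23. Runx2 (0.47 ± 0.22, adjusted p = 0.0739) and Ikzf5 (0.47 ± 0.23, adjusted p = 0.0982) did not pass, although without replicate 3 Ikzf5 did (0.72). In all, 5 of the 7 members tested rose and 0 fell, where 39.7% of 15220 genes passed, 16.5% higher and 23.2% lower.

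Prg2-positive cells had more Ikzf2 and Ikzf1 RNA than GMP cells without Prg2, and the higher level of Runx1 depended on which Prg2-zero cells were taken. Ikzf2 stood at 183, 262 and 247 CPM in Prg2-positive cells, against 16.7, 26.9 and 21.5 CPM in Prg2-zero cells (log2 3.005 ± 0.11, adjusted p = 2.42e-150). Its UMIs were found in 35.1, 44.8 and 43.3% of thinned positive cells against 3.79, 6.48 and 5.08% (unthinned 63.5, 72.9 and 61.2% against 14.3, 23.1 and 21.3%). The lowest positive library lay far above the highest Prg2-zero library. Ikzf1 stood at 112, 128 and 147 CPM in Prg2-positive cells against 38.9, 41.8 and 46.4 CPM (log2 1.21 ± 0.11, adjusted p = 3.16e-24).

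Runx1 stood at 112, 121 and 107 CPM in Prg2-positive cells against 51.0, 64.0 and 68.6 CPM (log2 0.49 ± 0.12, adjusted p = 0.000594). Against shallow Prg2-zero cells the Runx1 value was -0.09, and against those of the lower Elane tertile 0.05 (adjusted p = 0.807), neither past the threshold. Runx2 stood at 25.2, 51.4 and 28.7 CPM against 15.2, 18.5 and 20.7 CPM (log2 0.60 ± 0.21, adjusted p = 0.0224). The Runx2 call rests on replicate 2, without which its log2 value was 0.17, and it did not pass against shallow Prg2-zero cells (adjusted p = 0.0941) or the lower Elane tertile (adjusted p = 0.119). Runx3 stood at 73.2, 77.8 and 95.7 CPM against 61.0, 64.5 and 64.7 CPM, higher in each library by total UMIs (log2 0.37, adjusted p = 0.0301) but level with TMM factors (-0.03 ± 0.13, adjusted p = 0.913). Cbfb (0.41 ± 0.20, adjusted p = 0.127; past the threshold without replicate 3, at 0.69) and Ikzf5 (0.27 ± 0.24, adjusted p = 0.491) did not pass. In all, 4 of 7 members rose and 0 fell (2 rose against the lower Elane tertile), where 24.0% of 14994 genes passed, 8.75% higher and 15.3% lower.

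Set against each other directly, with cells holding any UMI of the other marker left out, 74, 95 and 67 Prg2-positive cells had less Runx1, Runx3 and Ikzf1 than 73, 117 and 108 Gzmb-positive cells. Runx1 stood at 112, 122 and 107 CPM in Prg2-positive cells against 219, 261 and 328 CPM in Gzmb-positive cells, without overlap. The log2 fold change was -1.29 ± 0.14 for Runx1 (adjusted p = 3.82e-11), -0.85 ± 0.16 for Runx3 (adjusted p = 1.68e-05) and -0.83 ± 0.13 for Ikzf1 (adjusted p = 1.10e-06). Ikzf2 also passed (-0.36 ± 0.12, adjusted p = 0.0111), although without replicate 2 or replicate 3 it did not. Runx2 (0.01 ± 0.26), Cbfb (-0.28 ± 0.25) and Ikzf5 (-0.39 ± 0.28) did not pass. Thus 4 of 7 members were lower and 0 higher, where 43.3% of 6757 genes passed, 20.6% higher and 22.8% lower.

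Other differences between these sides moved with the members. Positive cells were shallower, with median depths of 3815, 3999 and 4483 UMIs for Gzmb-positive cells against 11051, 12966.5 and 15312 for Gzmb-zero cells, and of 5096.5, 5961 and 6058 for Prg2-positive cells against 11021, 12911 and 15245 for Prg2-zero cells. With Gzmb-zero cells held to depths no greater than the upper quartile of the positive cells (216 to 514 cells per library), Ikzf2 was higher by 1.197 ± 0.12, Ikzf1 by 1.25 ± 0.13, Runx1 by 0.93 ± 0.12 and Runx3 by 0.59 ± 0.14 on the log2 scale, all still past the threshold. For Prg2 the same restriction left Ikzf2 at 1.37 ± 0.11 and Ikzf1 at 0.69 ± 0.12, past the threshold, and Runx1 at -0.09 ± 0.13, which did not pass. With Prg2-zero cells taken only from the lower Elane tertile, Ikzf2 (1.98 ± 0.10) and Ikzf1 (0.95 ± 0.12) passed and Runx1 (0.05 ± 0.12, adjusted p = 0.807) did not. For Gzmb the same choice of cells left Ikzf2 at 2.26 ± 0.11, Ikzf1 at 1.76 ± 0.11, Runx1 at 1.26 ± 0.10 and Runx3 at 0.66 ± 0.12, all past the threshold, and Cbfb at 0.42 ± 0.20 (adjusted p = 0.0722). These alternatives were chosen after seeing the data. Unthinned shares of cells with Runx3, which did not take depth into account, were lower in Gzmb-positive cells (45.5, 43.9 and 49.6% against 46.6, 53.5 and 60.1%), while thinned shares were higher (31.2, 20.5 and 32.5% against 11.5, 11.9 and 12.3%).

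Of the marker lists, the 6 genes for basophils and mast cells, Gzmb among them, summed to between 6952 and 7773 CPM in Gzmb-positive cells against 233 to 303 CPM. In each library 5 of 6 were higher. The sides were split by Gzmb, so its own part in this sum and count was fixed in advance. The 4 stem cell markers summed to between 143 and 189 CPM against 14.3 to 19.9 CPM. The 4 T and NK cell markers summed to between 792 and 1001 CPM against 682 to 715 CPM, and 1, 3 and 4 of the 4 were higher in Gzmb-positive cells of replicates 1, 2 and 3. Cd3e was at 0 in Gzmb-positive cells of replicates 1 and 2, and none of the 4 was at 0 in replicate 3. The 5 erythroid markers summed to between 44.9 and 87.2 CPM against 3.92 to 10.1 CPM. In Prg2-positive cells the 5 eosinophil markers, Prg2 among them, summed to between 15270 and 21870 CPM against 37.1 to 41.0 CPM. Here too the part of Prg2 in the sum was fixed by the split. Cd3e, Cd3d and Klrd1 were at 0 in Prg2-positive cells of all 3 libraries. The basophil and mast cell markers summed to between 1593 and 2698 CPM in Prg2-positive cells against 262 to 342 CPM, with 5 of 6 higher in each library. The stem cell markers summed to between 42.1 and 59.2 CPM against 15.2 to 20.6 CPM, and the erythroid markers to between 38.9 and 53.6 CPM against 3.98 to 10.5 CPM. The granulocytic list was lower on both positive sides, at 7304 to 8035 CPM in Gzmb-positive cells against 31843 to 35681 CPM. The part of these lists in the members' changes was not tested.

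**Figure D2:**
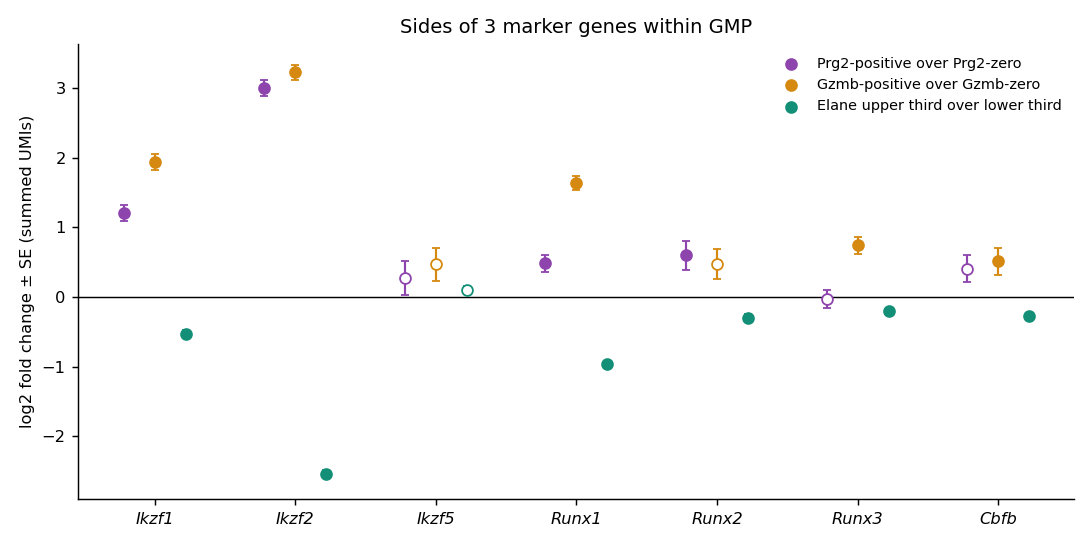
Log2 fold change ± SE (vertical axis) of 7 members in 3 comparisons within GMP, each from UMIs summed in 3 libraries; filled points have an adjusted p under 0.05 and open points do not. Ikzf2 has the highest points for Prg2 and Gzmb (3.005 and 3.23) and the lowest for Elane (-2.55), and Runx1 separates Gzmb-positive (1.64) from Prg2-positive cells (0.49).

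With rising Elane, most members fell within GMP. Ikzf2 stood at 5.56, 9.15 and 7.39 CPM in the upper tertile by Elane, against 43.3, 64.9 and 50.6 CPM in the lower tertile (log2 -2.55 ± 0.06, adjusted p = 4.17e-23). Its UMIs were found in 1.119, 1.94 and 1.49% of thinned Elane-high cells against 9.34, 15.2 and 12.3% of Elane-low cells (unthinned 6.30, 10.9 and 10.9% against 27.8, 41.7 and 36.9%). How much free RNA in the droplets added to these shares was not tested. Runx1 stood at 30.3, 41.7 and 45.6 CPM in Elane-high cells against 82.7, 96.3 and 101 CPM (log2 -0.97 ± 0.05, adjusted p = 6.06e-16), and Ikzf1 at 29.2, 32.4 and 37.4 CPM against 56.4, 56.9 and 60.9 CPM (log2 -0.53 ± 0.05, adjusted p = 2.02e-10).

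Runx2 (-0.30 ± 0.06, adjusted p = 5.93e-05), Cbfb (-0.28 ± 0.05, adjusted p = 7.79e-05) and Runx3 (-0.20 ± 0.05, adjusted p = 0.000451) fell by less, and without the library block these 3 did not pass. Ikzf5 did not pass (0.11 ± 0.06, adjusted p = 0.127) and was lower by total UMIs (-0.18, adjusted p = 0.0136). Thus 6 of 7 members fell, where 57.7% of 14991 genes passed, 27.0% higher and 30.7% lower. Elane-high cells were deeper, with medians of 11100, 13329 and 15422 UMIs against 9123, 11038 and 13858.5 in Elane-low cells.

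Split into quintiles, 5 groups ranked by Elane, Ikzf2 detection dropped most between the lowest quintile and the next. It was 11.8, 19.3 and 16.6% in the lowest quintile of replicates 1, 2 and 3, 4.92, 6.89 and 4.14% in the second and 1.03, 1.66 and 1.10% in the highest. Runx1 detection was 20.1, 21.9 and 21.5% in the lowest quintile and 5.42, 7.06 and 8.38% in the highest, passing through intermediate values in each quintile between.

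**Figure D3:**
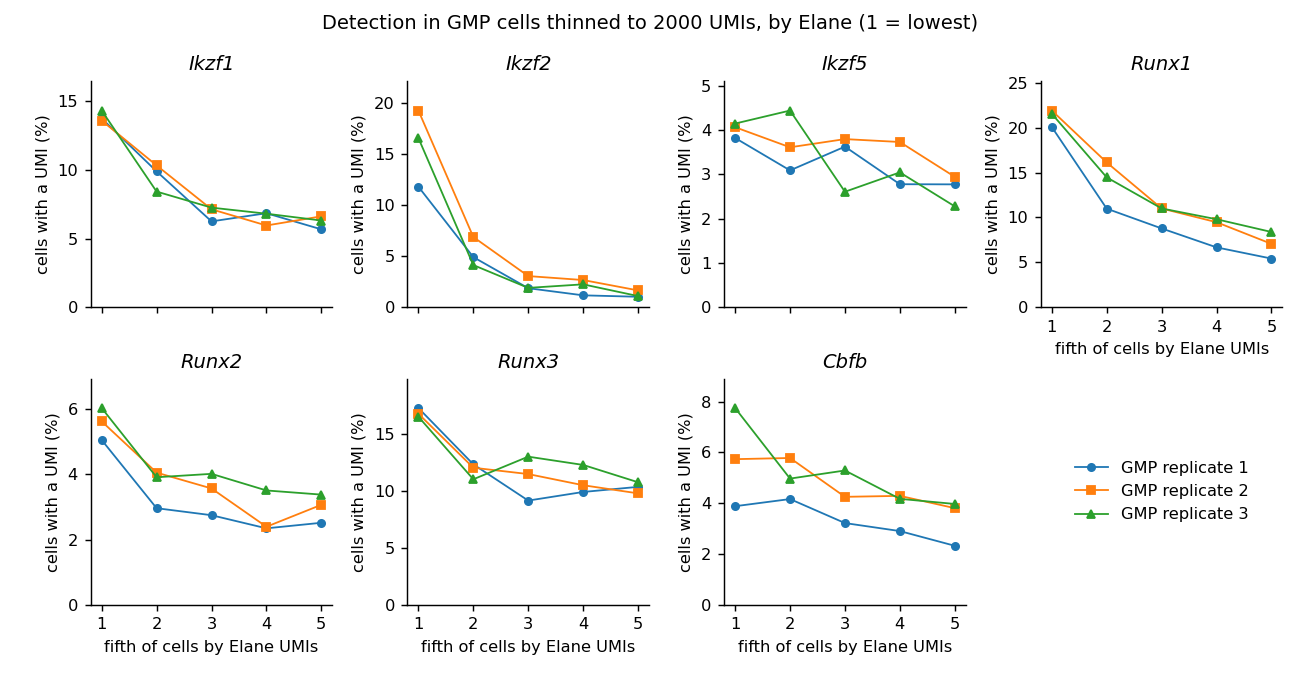
Share of thinned GMP cells with a UMI of each gene (vertical axis, percent) by quintile of cells ranked by Elane (horizontal axis, 1 the lowest), with 1 line per GMP replicate. Ikzf2 and Runx1 fall in all 3 libraries, where Ikzf2 stands at 11.8, 19.3 and 16.6% in the lowest quintile and 1.03, 1.66 and 1.10% in the highest, whereas Ikzf5 stays between 2.28 and 4.44%.

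Other lists moved with Elane. The eosinophil markers summed to 38.4 to 42.1 CPM in Elane-high cells against 275 to 398 CPM in Elane-low cells, and the basophil and mast cell markers to 77.5 to 95.8 CPM against 674 to 913 CPM. The stem cell markers summed to 8.18 to 11.9 CPM against 27.8 to 39.4 CPM, the monocytic markers to 239 to 290 CPM against 443 to 616 CPM and the T and NK cell markers to 1091 to 1149 CPM against 356 to 359 CPM. Only 2, 1 and 2 of the 4 T and NK cell markers were higher in Elane-high cells of replicates 1, 2 and 3. Among Elane-high cells, Cd3e was at 0 in replicates 1 and 2, and Klrd1 in replicates 1 and 3. The part of the last 3 lists in the members' changes was not tested. When all cells with a thinned UMI of Gzmb, Mcpt8, Prss34, Ms4a2, Cpa3 or Fcer1a or at least 3 of Prg2 were left out, an alternative chosen after seeing the data, Ikzf2 was still lower in Elane-high cells (log2 -1.56 ± 0.07, adjusted p = 1.72e-15), as were Runx1 (-0.82 ± 0.04) and Ikzf1 (-0.35 ± 0.05). Runx3 no longer passed (-0.10 ± 0.04, adjusted p = 0.0699). Read from the other side, 346, 623 and 403 thinned GMP cells had an Ikzf2 UMI in replicates 1, 2 and 3. Of these 61.6, 64.8 and 60.5% carried a UMI of a basophil or mast cell marker or at least 3 of Prg2, against 20.6, 23.9 and 19.7% of cells without Ikzf2, and 74.6, 75.3 and 78.7% lay in the lower Elane tertile, against 32.0, 31.5 and 33.0% of cells without Ikzf2.

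In CMP and LMPP the split could be made by Dntt, with 437 positive cells against 5545 in CMP and 197 against 6496 in LMPP. Here Ikzf1 and Ikzf2 went opposite ways in both libraries. In CMP, Ikzf1 stood at 167 CPM in Dntt-positive cells against 79.6 CPM in Dntt-zero cells, a ratio of 2.10 (95% counting interval 1.957 to 2.25), and in LMPP at 207 against 105 CPM, a ratio of 1.959 (1.81 to 2.11). Ikzf2 stood at 21.6 CPM in Dntt-positive CMP cells against 60.0 CPM, a ratio of 0.359 (0.297 to 0.431), and at 30.3 CPM in Dntt-positive LMPP cells against 101 CPM, a ratio of 0.299 (0.245 to 0.362). The intervals cover counting error only, and with 1 library each there is no test.

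Detection differed in the same directions. An Ikzf1 UMI was found in 33.2% of thinned Dntt-positive CMP cells against 14.6% and in 28.4% of Dntt-positive LMPP cells against 18.6% (unthinned 79.6% against 51.3% and 88.3% against 58.3%). An Ikzf2 UMI was found in 4.35% against 11.1% in CMP and in 3.55% against 18.5% in LMPP (unthinned 20.4% against 41.4% and 33.5% against 57.0%). Dntt-positive cells were deeper, with medians of 11927 UMIs against 9957 in CMP and 17104 against 9038.5 in LMPP.

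The Runx genes were less alike in the 2 libraries. Runx2 stood at 78.9 CPM in Dntt-positive CMP cells against 43.1 CPM (ratio 1.83, 1.65 to 2.02), but at 92.3 CPM in Dntt-positive LMPP cells against 106 CPM (0.874, 0.780 to 0.977). The unthinned share of LMPP cells with Runx2 went the other way, at 72.6% against 58.8%, where Dntt-positive cells were the deeper. Runx1 was level in CMP, at 86.7 against 91.1 CPM (0.952, 0.866 to 1.04), and higher in LMPP, at 104 against 75.7 CPM (1.37, 1.23 to 1.53). Runx3 was higher in Dntt-positive CMP cells, at 186 against 143 CPM (1.31, 1.22 to 1.39), and level in LMPP, at 95.1 against 101 CPM (0.938, 0.838 to 1.05). Cbfb had ratios of 1.06 (0.899 to 1.24) in CMP and 1.28 (1.09 to 1.49) in LMPP, and Ikzf5 of 1.07 and 1.01. The lymphoid markers, Dntt among them, summed to 3316 CPM in Dntt-positive CMP cells against 170 CPM, and to 3252 against 299 CPM in LMPP. The stem cell markers summed to 112 CPM in Dntt-positive CMP cells against 182 CPM, and to 274 against 905 CPM in LMPP. The 4 megakaryocyte markers summed to 93.7 against 588 CPM in CMP. Whether these differences in make-up account for any of the members' was not tested.

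**Figure D4:**
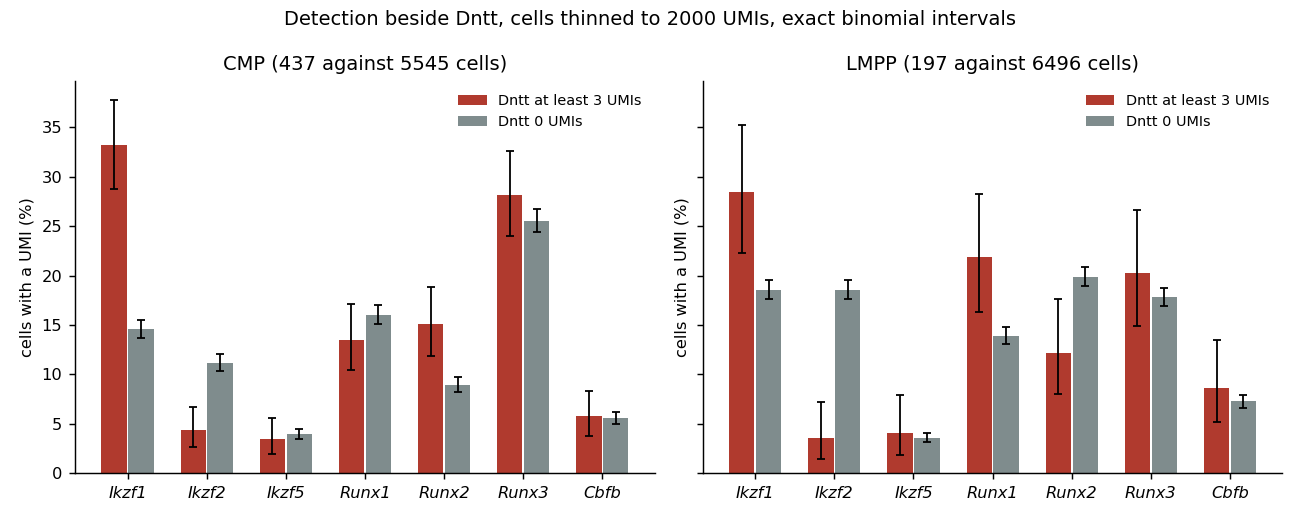
Share of thinned cells with a UMI of each gene (vertical axis, percent, from 0) in Dntt-positive cells (red) and Dntt-zero cells (grey) of CMP (left) and LMPP (right), with exact 95% binomial intervals. The Ikzf1 bars are higher and the Ikzf2 bars lower beside Dntt in both libraries, and Runx2 stands at 15.1% against 8.91% in CMP and 12.2% against 19.9% in LMPP.

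Elane-positive cells, 190 in CMP and 247 in LMPP, had less of most members than the 6180 and 6086 cells without Elane. Ikzf2 stood at 22.3 against 56.9 CPM in CMP and at 17.1 against 99.1 CPM in LMPP, Runx2 at 22.6 against 49.4 CPM and 24.5 against 110 CPM, Ikzf1 at 54.1 against 90.9 CPM and 46.9 against 117 CPM, and Runx3 at 71.1 against 153 CPM and 58.9 against 104 CPM. Runx1 went the other way in CMP, at 100.5 against 89.1 CPM (ratio 1.13, 1.01 to 1.26), and was lower in LMPP, at 48.0 against 78.4 CPM. That Runx1 value in CMP is a level from unthinned UMIs, and detection of Runx1 in thinned CMP cells did not lie on the higher side beside Elane. Detection of Ikzf5 in CMP, given with the flagged results, did. Median depths were 17696.5 against 9852 UMIs in CMP and 18002 against 9092.5 in LMPP. The stem cell markers summed to 23.8 CPM in Elane-positive CMP cells against 187 CPM, and to 107 against 887 CPM in LMPP. In CMP the megakaryocyte markers summed to 68.8 against 582 CPM, the erythroid markers to 22.3 against 268 CPM, the monocytic markers to 876 against 182 CPM and the late neutrophil markers to 319 against 1.597 CPM. In LMPP the erythroid markers summed to 6.40 against 96.9 CPM, the late neutrophil markers to 1031 against 462 CPM and the T and NK cell markers to 636 against 65.0 CPM. Only 2 of these 4 T and NK cell markers, Cd3d and Nkg7, were higher in Elane-positive LMPP cells, where Cd3e and Klrd1 were at 0. The part of these lists in the members' differences was not tested. Set against Elane-positive cells of the same library, with cells holding any UMI of the other marker left out, Dntt-positive cells had 3.15-fold (2.66 to 3.74) the Ikzf1 level in CMP and 4.64-fold (3.95 to 5.46) in LMPP, and 3.57-fold (2.76 to 4.68) and 3.74-fold (2.98 to 4.72) the Runx2 level. For Ikzf2 the same ratio was 0.962 (0.706 to 1.32) in CMP and 1.77 (1.29 to 2.42) in LMPP, and Ikzf2 stood below its level in marker-free cells on both sides. Gzmb-positive cells numbered 18 in CMP, under the minimum of 20. As values only, they had 305 CPM of Ikzf2 against 54.2 CPM (ratio 5.63, 4.12 to 7.52), 292 CPM of Ikzf1 against 88.2 CPM and 299 CPM of Runx1 against 89.8 CPM.

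Members were also scored for detection in the same cell, as the log2 odds ratio over the thinned cells of a library. Leaving out Ikzf3, 17 of the 21 pairs were above 0 in all 3 GMP libraries and 0 were below 0 in all 3, and with cells thinned to 1000 UMIs 11 pairs were above 0 in all 3. Pairs of other genes were not scored, so these counts cannot be read as particular to the members. The pair of Ikzf2 with Runx1 stood at 1.24, 0.97 and 1.1997 in GMP replicates 1, 2 and 3, against 0.18 in CMP and 0.04 in LMPP. Ikzf1 with Ikzf2 stood at 0.88, 0.80 and 1.38 in GMP, 0.15 in CMP and 0.08 in LMPP. For both pairs all GMP values lay above the other 2 libraries, as they did with cells thinned to 1000 or 4000 UMIs. Runx1 with Runx3 stood at 0.27, 0.26 and 0.27 in GMP, 0.23 in CMP and -0.11 in LMPP, but at other depths its GMP values spread, to -0.04, 0.32 and 0.53 at 1000 UMIs and 0.39, 0.18 and 0.03 at 4000 UMIs. Ikzf1 with Runx1 stood at 0.44, 0.49 and 0.31 in GMP, near 0 in CMP and at 0.04 in LMPP. At 1000 UMIs the LMPP value was 0.484 and GMP stood at 0.505, 0.716 and 1.13, above LMPP but only narrowly in replicate 1. At 4000 UMIs the LMPP value was 0.39 and GMP stood at 0.57, 0.27 and 0.44, so the gap between GMP and LMPP did not hold at that depth. These values are descriptions in sparse counts, and weak odds ratios are not read further.

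**Figure D5:**
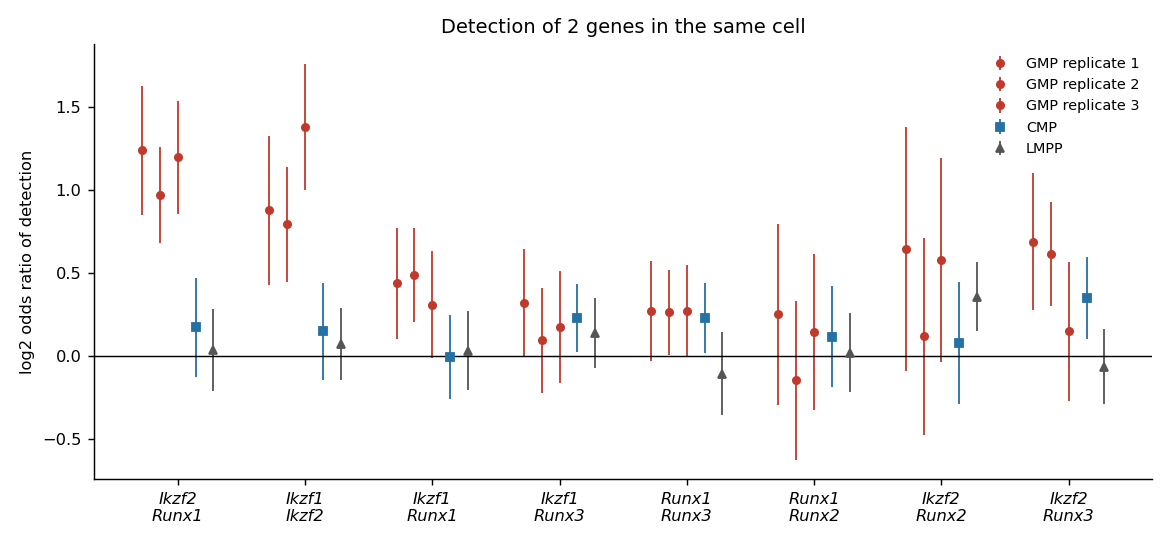
Log2 odds ratio of finding both genes of a pair in the same thinned cell (vertical axis), with counting intervals, for 8 pairs in GMP replicates (red), CMP (blue) and LMPP (grey). Ikzf2 with Runx1 and Ikzf1 with Ikzf2 lie between 0.80 and 1.38 in GMP and at 0.18 or below in CMP and LMPP.

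Cofactors of both families were read from lists of known partners. Of 15 NuRD and CtBP genes, the corepressor partners of Ikaros, 0 were higher and 6 lower in GMP against CMP, and 3 were higher and 2 lower against LMPP. Over all genes tested, 32.3% passed against CMP (13.4% higher, 18.9% lower) and 57.1% against LMPP (25.7% higher, 31.4% lower). The ATPase gene Chd3 was lower in both (log2 -1.40 ± 0.24, adjusted p = 0.00414, and -1.11 ± 0.24, adjusted p = 0.00617), as was the subunit gene Mta3 (-2.38 ± 0.16 and -1.22 ± 0.16), whereas Chd4 and Rbbp4 passed neither test. Of 12 Runx partners, 0 were higher and 4 lower against CMP, and 2 were higher and 5 lower against LMPP. The corepressor gene Cbfa2t3 (-1.17 ± 0.21 and -1.37 ± 0.21) and the histone methyltransferase gene Kmt2a (-0.79 ± 0.11 and -1.15 ± 0.11) fell in both, and Prmt1 (0.96 ± 0.14) and Sin3b (0.65 ± 0.14) rose against LMPP. The list medians were -0.22 and 0.13 for the NuRD and CtBP genes and -0.23 and -0.36 for the Runx partners, beside -0.04 and -0.09 over all genes.

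In Gzmb-positive cells, where 39.7% of all genes passed, 5 of the 15 NuRD and CtBP genes were higher and 5 lower, with Chd3 at 3.32 ± 0.10 (adjusted p = 1.34e-220) and Chd4 at 0.73 ± 0.09, while Rbbp7 (-1.08 ± 0.13) and Rbbp4 (-0.65 ± 0.12) fell. Of the 12 Runx partners 6 rose and 2 fell, with Cbfa2t3 at 2.36 ± 0.10 and the Groucho gene Tle3 at 2.21 ± 0.18. In Prg2-positive cells, where 24.0% of all genes passed, 3 NuRD and CtBP genes rose, 2 fell and 10 did not pass, Chd3 rising by 1.41 ± 0.15, and 6 Runx partners rose and 2 fell, Tle3 rising by 1.46 ± 0.21. In Elane-high cells, where 57.7% of all genes passed, 0 rose in either list, 8 of 15 and 8 of 12 fell, and Chd3 was at -1.33 ± 0.05. Directly compared, Prg2-positive cells had less Chd3 (-1.93 ± 0.13) and Cbfa2t3 (-1.93 ± 0.13) than Gzmb-positive cells.

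Of 10 lymphoid genes that depend on or respond to Ikaros, 0 were higher and 8 lower in GMP against CMP, and 1 was higher and 7 lower against LMPP. Of all genes tested, 13.4% were higher and 18.9% lower against CMP, and 25.7% were higher and 31.4% lower against LMPP. All 5 myeloid or cytotoxic genes with known Runx sites (Csf1r, Mpo, Elane, Spi1 and Gzmb) were higher in GMP in both comparisons, Mpo by 2.26 ± 0.22 and 4.43 ± 0.26. In Prg2-positive cells all 5 were lower, and in Gzmb-positive cells all 4 of those tested, where Mpo fell by 2.48 ± 0.11. Over all genes tested, 15.3% were lower in Prg2-positive cells and 23.2% in Gzmb-positive cells. In Elane-high cells 1 of the 4 tested was higher, Mpo by 0.50 ± 0.04, and 2 were lower, where 57.7% of all genes passed.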

How the data were processed

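The authors deposited 10x Genomics matrices of UMI counts per gene and barcode for 5 libraries. Per the submitters' processing notes, Cell Ranger 3.1.0, Seurat 3.1.1 and the mm10 build were used, whereas the matrix headers name Cell Ranger 6.1.1, so the version behind these counts is uncertain. All 55450 gene IDs matched GENCODE M21. From the deposited counts, barcodes with at least 500 genes, at least 1000 UMIs and at most 10% mitochondrial UMIs were kept. Simulated doublets were scored and barcodes called at 0.8% per 1000 barcodes (scikit-learn 1.9.0). Deposited depth per library lay between 90067195 and 137141095 UMIs.

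UMIs of kept cells were summed per library, or per library and side of a marker gene, and tested with edgeR 4.0.16 in R 4.3.3: quasi-likelihood F test, TMM factors, filterByExpr, prior count 2, two-sided, Benjamini-Hochberg adjustment over all genes tested and a threshold of 0.05. GMP against CMP or LMPP used all 5 libraries, with 2 residual degrees of freedom, both from GMP. Sides within GMP were tested with library as a block. CMP and LMPP sides have 1 library each, so ratios carry exact counting intervals of 95% and no test. Shares of cells used cells of at least 2000 UMIs, each thinned to that number, with exact binomial intervals. Intervals cover counting error only. Sides needed at least 20 cells. Python 3.11.15 with numpy 2.4.6, scipy 1.17.1 and pandas 2.3.3 was used for the rest, and the fits were tested on simulated data.

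The members, partner lists and marker lists were chosen with earlier results of these data known. Genes named are all members, the 4 marker genes, in each partner list per comparison up to 4 genes (the 2 with the largest passing change and the 2 of highest level), and the 3 nearest genes of each member of at least 20 CPM. Values of Il7r, Flt3, Rag1 and Satb1 were left out, and 1 further gene of the lymphoid list is not reported here. Alternatives were DESeq2 1.42.0 (size factors and Wald test), scaling by total UMIs, no low-count filter, all barcodes, kept doublet calls, other marker thresholds and thinning depths, no library block and leaving out each GMP replicate. Promoter sequences are from RefSeq (GRCm38.p6).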

Additional observations from a re-analysis of the deposited data

Results flagged for a closer look

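Differences between populations in how often a member was detected beside a marker, as log2 odds ratios in thinned cells, were flagged where every library of one population lay on the other side of 0 from the other population. None of these differences was tested, and CMP and LMPP have 1 library each.

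Runx2 stood at 0.87 beside Dntt in CMP and at -0.81 in LMPP, a difference of 1.68. Runx1 stood at -0.28 in CMP and at 0.80 in LMPP, a difference of -1.08, but at 0.48 in CMP when cells were thinned to 1000 UMIs. Ikzf5 stood at -0.15 beside Dntt in CMP and at 0.27 in LMPP, a difference of -0.42. Beside Elane, Ikzf5 stood at 0.71 in CMP and at -0.30 in LMPP, a difference of 1.02, and at -0.40, -0.27 and -0.80 in GMP replicates 1, 2 and 3, a difference of -1.20 between their mean and CMP. At a depth of 4000 UMIs the CMP value of Ikzf5 was -0.21, on the side of the other libraries.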

How the results depend on the processing

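Of 502 values of single members over the alternatives, 429 kept their direction and side of the threshold, 28 no longer passed, 18 newly passed and 27 changed sign. Members called moved from 3 to 5 for GMP against LMPP with total UMI scaling (3 to 5 leaving out replicates). For Prg2 they moved from 4 to 7 with total UMI scaling, to 2 with the lower cut and to 2 with Prg2-zero cells in the lower Elane tertile (3 to 5 leaving out replicates). For Elane they moved from 6 to 3 with no library block, and pairs detected together in all GMP libraries moved from 17 to 11 at 1000 UMIs. Leaving out replicates gave 4 for GMP against CMP, 5 for Gzmb, 6 for Elane and 3 to 4 for Prg2 against Gzmb.

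All genes called numbered 917 with the lower cut and 1986 with thinned cells for Prg2 (3605 as reported), 3062 with shallow Gzmb-zero cells (6045), 3982 with no library block and 5228 thinned for Elane (8644), and 1193 by DESeq2, 4524 with the lower cut and 1386 thinned for Prg2 against Gzmb (2929). Total UMI scaling moved higher and lower calls to 1454 and 5954 against CMP (2638 and 3724), 2160 and 10217 against LMPP (5069 and 6185), 3108 and 845 for Prg2 (1312 and 2293), 4138 and 1872 for Gzmb (2516 and 3529) and 1484 and 8729 for Elane (4047 and 4597).

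Sign changes, on the log2 scale, were these. Cbfb against CMP was 0.0113 with DESeq2 size factors, 0.0111 by the Wald test and -0.14 to 0.13 leaving out replicates. With total UMIs, Ikzf5 was -0.12 against CMP, -0.21 against LMPP, -0.18 by Elane (-0.17 thinned) and -0.0825 for CMP against LMPP, and Runx1 was -0.32 against LMPP. For Prg2, Runx3 was 0.0353 with DESeq2 size factors, 0.37 with total UMIs, 0.0335 by the Wald test, 0.0306 with the lower cut, 0.0372 with doublet calls kept and -0.15 to 0.0209 leaving out replicates. Ikzf5 was -0.0081 with the lower cut and -0.0102 thinned, and Runx1 was -0.0905 against shallow cells. Runx2 for Gzmb was -0.0157 against shallow cells. For Prg2 against Gzmb, Runx2 was -0.0139 by the Wald test, -0.31 and -0.0571 with the lower and higher cut, -0.0117 with doublet calls kept and -0.22 to 0.19 leaving out replicates, Ikzf5 was 0.15 with the higher cut and Cbfb -0.73 to 0.31 leaving out replicates. The causes were not tested. Ikzf2 for Prg2 against Gzmb no longer passed by the Wald test (adjusted p = 0.36), thinned (adjusted p = 0.877) or with no library block (adjusted p = 0.106).

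Over the alternatives, 6 values of CMP against LMPP moved by more than their counting interval and 14 did not, and 34 detection values moved and 113 did not. No paired analysis was possible because only the GMP libraries carry replicate numbers; this holds for comparisons between populations, and the sides within GMP were paired by library. A higher cut for Elane was not run, since 18, 18 and 4 GMP cells had 0 Elane UMIs.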
